A study of Mus musculus with 71 samples.

Results

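miR-221 and miR-222 are 2 neighbouring microRNAs (miRNAs), read here as their 4 mature arms: mmu-miR-221-3p, mmu-miR-221-5p, mmu-miR-222-3p and mmu-miR-222-5p, written below without the species prefix. They were taken by name from the count tables of the study, as 4 of 1927 mature miRNAs listed and of 1085 with a count in any library. All 4 were counted in each of 71 small RNA libraries, and all 4 passed the filter on low counts in each tissue. The libraries came from right cerebellum, left striatum and left cortex of 24 numbered male mice. The groups in each tissue were DYT1KI mice with a crush of the right sciatic nerve, naive DYT1KI mice, WT mice with the same crush, and naive WT mice. DYT1KI mice carry a knock-in allele and serve as a model of DYT-TOR1A, a dystonia linked to the torsinA gene. The crush lasted 1 minute under isoflurane at 12 weeks of age, and the labels give 12 weeks post injury as the time of every group, naive mice included. Each group held 6 libraries, apart from the cerebellum of injured WT mice with 5. Replicates were separate mice.

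In animals, a miRNA guides the silencing complex to messenger RNAs that pair with its seed, which represses them. miR-221 and miR-222 come from an X-linked tandem pair of hairpins and are known for repressing the cell cycle inhibitor p27 (Cdkn1b) and the receptor Kit. They are abundant in vessel walls, and in injured peripheral nerve and its sensory ganglia they are known to be induced. The question put to the present data was their level in brain regions far from the crushed nerve.

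The mature sequences are shown because both 3p arms share a seed. Capitals mark bases 2 to 8, the seed. The sequences are those of RefSeq for GRCm38.p6, 5′ to 3′, and 3 of the 4 arms had an entry there.

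miR-221-3p: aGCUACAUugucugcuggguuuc

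miR-222-3p: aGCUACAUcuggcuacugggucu

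miR-221-5p: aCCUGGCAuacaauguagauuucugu

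miR-1928: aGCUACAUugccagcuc

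The first 8 bases of miR-221-3p and miR-222-3p are identical, and without gaps 11 of 23 positions match. That count compares bases at the same position only, and an alignment with gaps was not made. miR-1928, on chromosome 1 (chr1:74206562-74206578, minus strand), was the only other listed miRNA with this seed among those in the RefSeq table. It had 0 counts in all 71 libraries. The 2 hairpins lie on the minus strand of chromosome X, Mir222 at chrX:19146893-19146971 and Mir221 at chrX:19146294-19146388, with 504 bases between them. No exon or other gene of GENCODE M21 overlaps them, and the nearest protein-coding genes are Tex13c3 at 332 kb and 4930578C19Rik at 685 kb. In the Mir221 hairpin, of 95 bases, capitals mark the 5p arm and then the 3p arm.

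Mir221: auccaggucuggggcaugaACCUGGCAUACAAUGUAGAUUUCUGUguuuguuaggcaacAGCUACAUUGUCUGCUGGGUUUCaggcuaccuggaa

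In the Mir222 hairpin, of 79 bases, capitals mark the 3p arm.

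Mir222: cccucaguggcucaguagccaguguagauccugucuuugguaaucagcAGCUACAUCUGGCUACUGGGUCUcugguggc

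Total counts per library were 8199033 to 12582875 in cerebellum, 6161668 to 10219295 in striatum and 5182284 to 10064827 in cortex. Neuronal miRNAs (miR-124-3p, miR-9-5p, miR-128-3p and miR-138-5p) were counted in every tissue, as 4 of 4. Libraries of a tissue also differed in a way that the groups do not explain. The first principal component of log2 CPM deviations from group means took 48.2% of the variance in cerebellum, 29% in striatum and 54.4% in cortex. The labels number the mice of each group as biol rep 1 to 6, and a number stands for a different mouse in each group. For injured WT mice the cerebellum numbers also start from another mouse than those of the other tissues. Values are given for numbers 1 to 3 and 4 to 6 apart where these differed. miR-24-3p, an abundant miRNA, was counted in 8 of 24 cortex libraries, with at least 94332 counts where counted, and was at 0 in the other 16. The 8 were all 6 naive libraries numbered 1 to 3 and 2 injured ones (DYT1KI crush biol rep 2 and WT crush biol rep 3). In cerebellum it was counted in 2 libraries (biol rep 1 of WT crush and of DYT1KI naive), and in striatum in 0. In bulk tissue, fewer cells of a type and less of a miRNA per cell cannot be told apart.

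All 4 arms were lowest in cerebellum, intermediate in striatum and highest in cortex, in mean level over the groups. Levels are CPM, counts scaled to library size, after TMM scaling within a tissue, given as lowest, median and highest library. miR-221-3p, the most abundant arm, had 65.6, 98.995 and 153.5 CPM in cerebellum, 380, 564 and 809 CPM in striatum, and 611, 794 and 953 CPM in cortex. In these values cerebellum stood apart from both other tissues, while the ranges of striatum and cortex overlapped. Because scaling was done within each tissue, ranges of different tissues are not on a common scale. How many of all miRNAs separated between tissues was not counted.

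miR-221-5p, the minor arm of the same hairpin, had 5.79, 11.53 and 14.75 CPM in cerebellum, 14.9, 26.6 and 35.4 CPM in striatum, and 38.5, 52.5 and 64.9 CPM in cortex. The 3 tissues did not overlap for this arm in these values. The gap between the highest cerebellum and the lowest striatum library was too narrow to outlast another scaling with certainty. miR-222-3p had 5.10, 8.41 and 50.7 CPM in cerebellum, 24.99, 32.3 and 53.4 CPM in striatum, and 31.8, 81.95 and 222.2 CPM in cortex. Its ranges overlapped between all 3 tissues. miR-222-5p had 8.38, 13.2 and 19.2 CPM in cerebellum, 34.2, 45.4 and 57.5 CPM in striatum, and 42.3, 53.3 and 65.8 CPM in cortex. Cerebellum was apart for this arm, and striatum and cortex overlapped.

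**Figure D1:**
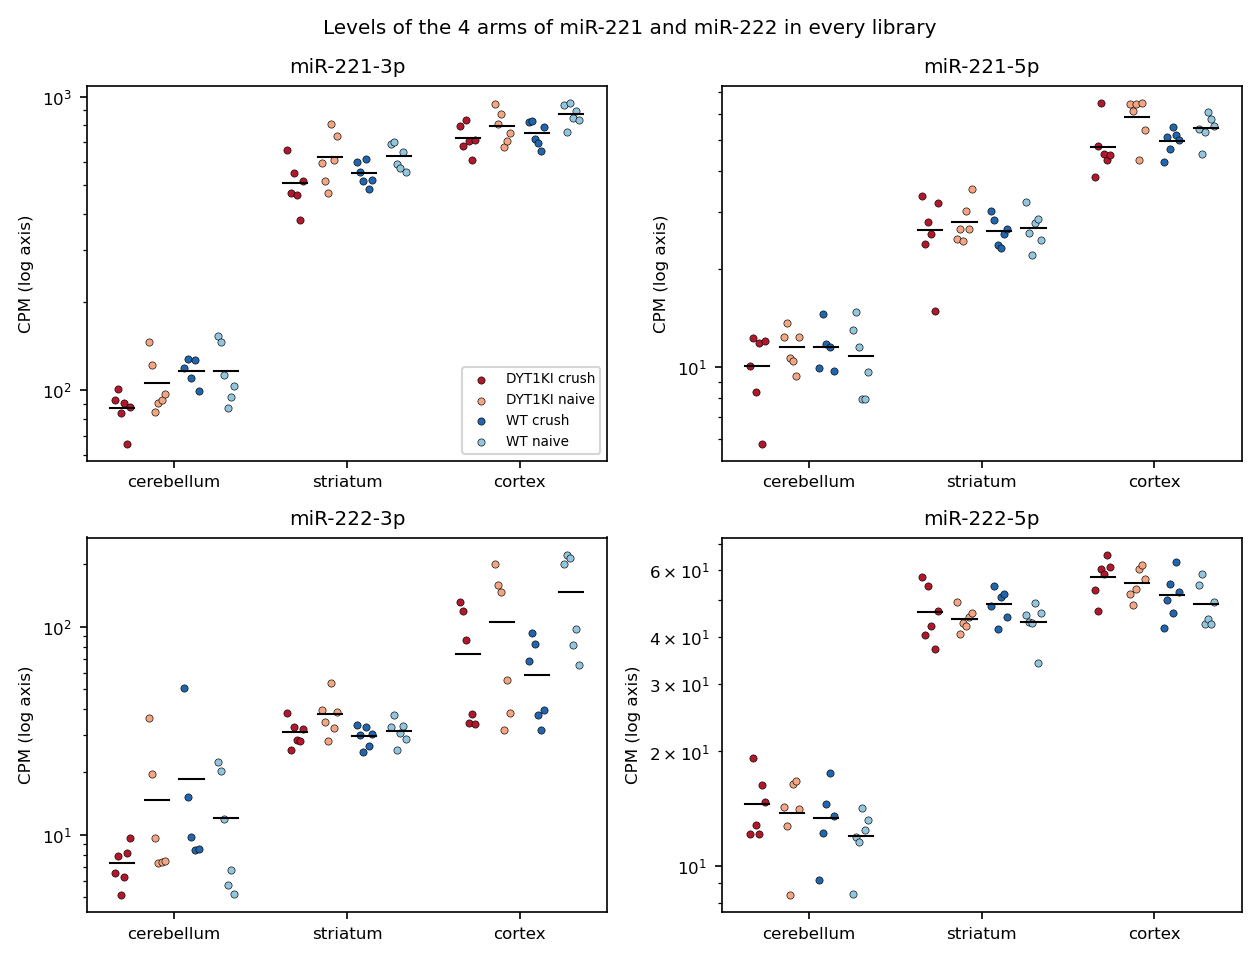
CPM on a log axis (vertical) of each arm in every library, by tissue and group (horizontal), with a bar at the group mean. All 4 arms are lowest in cerebellum, and miR-222-3p is the arm with wide spread inside the groups of cerebellum and cortex, from 31.8 to 222.2 CPM in cortex.

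Between tissues, all 4 arms passed the threshold in all 3 contrasts (edgeR's quasi-likelihood test over 12 groups, adjusted p under 0.05, Benjamini-Hochberg over 629 miRNAs). Most miRNAs passed as well: 74.6% were called between cerebellum and cortex, 76% between cerebellum and striatum and 61.2% between striatum and cortex. Cerebellum against cortex gave log2 differences (estimate ± SE) of -2.35 ± 0.07 for miR-221-3p, a 0.196-fold level, and -1.71 ± 0.08 for miR-221-5p. The same contrast gave -2.33 ± 0.22 for miR-222-3p and -1.45 ± 0.07 for miR-222-5p, with a largest adjusted p among the 4 of 4.92e-15. Every arm was thus lower in cerebellum than in cortex by more than its SE many times over.

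Between striatum and cortex the order of the arms was another one. miR-222-3p had the largest log2 difference over all libraries, -1.60 ± 0.21 (adjusted p = 7.31e-10), and miR-221-5p had -1.08 ± 0.08 (adjusted p = 3.21e-20). The mean of miR-222-3p was 143.6 CPM in cortex numbers 1 to 3 and 48.8 CPM in 4 to 6. In striatum it was 32.0 and 33.0 CPM in the same order. In 4 to 6, miR-221-5p averaged 52.2 CPM in cortex and 26.7 CPM in striatum. By these means miR-222-3p did not differ most in 4 to 6, and tissues were not fitted by range. miR-221-3p differed by -0.56 ± 0.06 (adjusted p = 9.99e-12) and miR-222-5p by -0.33 ± 0.07 (adjusted p = 2.04e-05). Cerebellum against striatum gave -1.78 ± 0.07 for miR-221-3p, -0.63 ± 0.08 for miR-221-5p, -0.73 ± 0.21 for miR-222-3p and -1.12 ± 0.07 for miR-222-5p. The largest adjusted p of these was 0.00159, for miR-222-3p, whose cerebellum mean was 17.9 CPM in numbers 1 to 3 and 7.35 CPM in 4 to 6. Total count scaling moved the median over all miRNAs to -0.61 between cerebellum and cortex and to -0.70 between cerebellum and striatum. With it the arm nearest to the median was miR-222-5p at -2.004 in the first contrast and miR-221-5p at -1.27 in the second. In naive WT mice alone, miR-222-5p between striatum and cortex and miR-222-3p between cerebellum and striatum no longer passed. Cerebellum was taken from the other side of the brain and extracted with another kit, so tissue, side and kit cannot be told apart in its contrasts.

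The balance of the 2 arms of a hairpin is given as a share of counts within a library, and was not tested between tissues. The 5p arm made up a median of 9.21% of miR-221 counts in cerebellum (range 7.70% to 12.1%), 4.62% in striatum (3.57% to 5.83%) and 6.14% in cortex (4.60% to 8.398%). The 3p arm was the major one of miR-221 in every library. In miR-222 the arms were closer. The 5p arm made up a median of 64.7% in cerebellum (15.4% to 71.8%), 59.8% in striatum (44.5% to 66.0%) and 39.1% in cortex (16.8% to 66.3%). The larger arm of miR-222 was thus the 5p arm in some libraries and the 3p arm in others. These shares rest on counted reads, and how efficiently each arm was captured was not measured.

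After nerve crush, miR-222-3p fell in the cortex when averaged over genotypes, and no other arm passed the threshold in any tissue. In DYT1KI cortex it had 34.1, 62.1 and 132 CPM (lowest, median, highest) in injured mice and 31.8, 101 and 199 CPM in naive mice. In WT cortex it had 31.9, 54.0 and 93.0 CPM in injured mice and 65.6, 150 and 222.2 CPM in naive mice. Injured and naive libraries overlapped in both genotypes, and 10 of 12 injured libraries lay below the naive mean of their genotype.

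Group means were 73.9 ± 44.7 CPM in injured and 105 ± 71.8 CPM in naive DYT1KI mice, and 58.8 ± 25.9 CPM in injured and 147 ± 72.7 CPM in naive WT mice (SD, n = 6 each). The averaged log2 change was -0.91 ± 0.33, a 0.531-fold level (edgeR, adjusted p = 0.0399). In this comparison 30.9% of 530 miRNAs were called, 58 higher and 106 lower, so 1 of 4 arms is near the background. Upper-quartile scaling gave 101 higher and 66 lower, and with it the median over all miRNAs was a log2 change of 0.08, against -0.03 with TMM and -0.16 with total count scaling. The change of miR-222-3p was -0.80 ± 0.33 with upper-quartile scaling (adjusted p = 0.0656), -0.84 ± 0.34 with limma voom (adjusted p = 0.0619) and -0.90 ± 0.35 with no filter (adjusted p = 0.0819), none of which passed.

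The call was narrow. Leaving out each of the 24 cortex libraries in turn lost it in 17 cases, with log2 changes from -1.01 to -0.67 over the 24 and adjusted p-values up to 0.115. These were DYT1KI crush biol rep 3 to 6, DYT1KI naive biol rep 1, 2, 3 and 5, WT crush biol rep 1, 3, 4, 5 and 6, and WT naive biol rep 1 to 4. The count over all miRNAs ranged from 25 to 220 in the same fits.

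**Figure D2:**
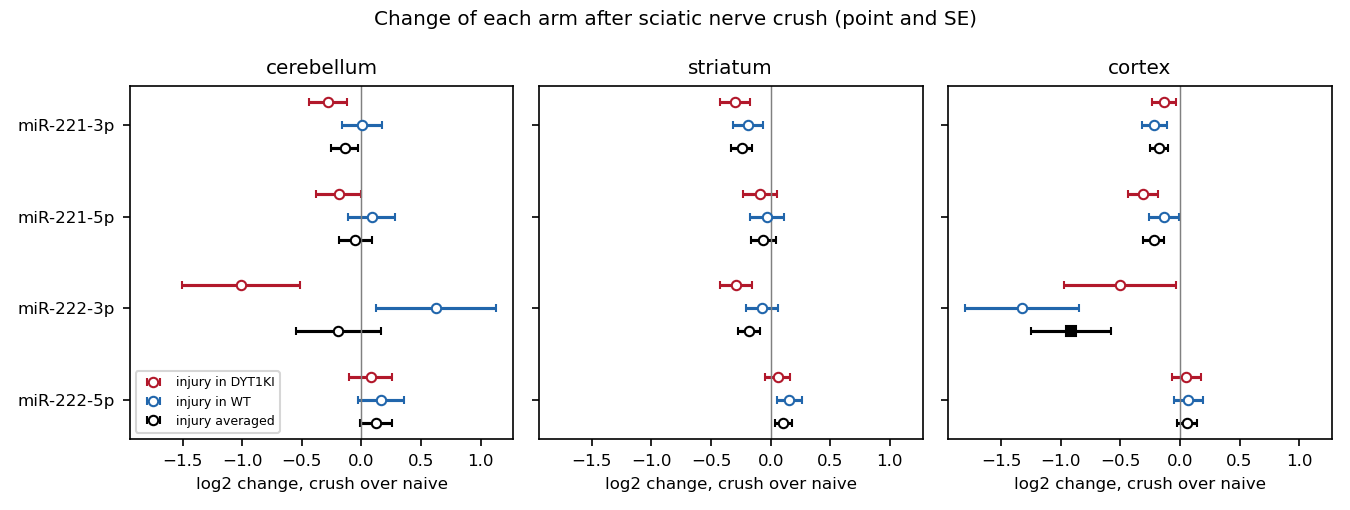
Log2 change of each arm after crush, injured over naive (horizontal), for each tissue, in DYT1KI mice, in WT mice and averaged, with SE bars; a filled square has an adjusted p under 0.05. Only the averaged change of miR-222-3p in cortex, -0.91, passed.

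The number of a mouse went with its miR-222-3p level in the cortex. Over all groups, libraries numbered 1 to 3 held 68.3 to 222.2 CPM and those numbered 4 to 6 held 31.8 to 97.9 CPM. Within numbers 1 to 3, the 6 injured libraries had 68.3 to 132 CPM and the 6 naive ones 147 to 222.2 CPM. These 2 sets did not overlap. How many of all miRNAs separated there in this way was not counted, and 211 of 539 were called in those libraries. Within numbers 4 to 6, injured libraries had 31.9 to 39.7 CPM and naive ones 31.8 to 97.9 CPM. There the 3 naive WT libraries lay above every injured one, while a naive DYT1KI library was as low as the lowest injured ones.

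Fitted within each range of numbers, the averaged log2 change was -0.81 ± 0.13 in 1 to 3 (adjusted p = 0.000409) and -0.71 ± 0.15 in 4 to 6 (adjusted p = 0.00692). With the range as a term it was -0.85 ± 0.11 (adjusted p = 2.19e-05). Many miRNAs were called in these fits, 211 of 539 in 1 to 3, 124 of 521 in 4 to 6 and 242 of 530 with the term. The labels give no cut between 3 and 4, and the 2 ranges differ in miR-222-3p itself. The p-values of these fits hold for that cut only and do not make the call above less narrow. In WT mice, the change was -1.22 ± 0.19 in 1 to 3 (adjusted p = 0.000459) and -1.18 ± 0.21 in 4 to 6 (adjusted p = 0.0179), where 189 of 539 and 27 of 521 miRNAs were called. In DYT1KI mice it was -0.40 ± 0.18 in 1 to 3 (adjusted p = 0.175) and -0.24 ± 0.21 in 4 to 6 (adjusted p = 0.442). Within numbers 1 to 3, miR-24-3p was counted in 2 of 6 injured and 6 of 6 naive libraries, and its part in these changes was not tested.

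In the fit of 4 groups without the number, neither genotype passed in edgeR. The log2 change of miR-222-3p was -0.51 ± 0.47 in DYT1KI mice (adjusted p = 0.510) and -1.32 ± 0.48 in WT mice (adjusted p = 0.0794). No miRNA passed there, 0% in each genotype, with 131 and 168 at an unadjusted p under 0.05. Without DYT1KI naive biol rep 1 the change in DYT1KI mice was -0.098 ± 0.46. Fitted on the 2 WT groups alone, the change of miR-222-3p in WT mice was -1.28 ± 0.37 (adjusted p = 0.0221), with 134 of 480 miRNAs called. DESeq2 on 4 groups gave -1.27 ± 0.46 (adjusted p = 0.0406), with 84 of 530 called. The authors' deposited table gave -0.34 ± 0.31 for DYT1KI crush against naive (adjusted p = 0.468) and -0.86 ± 0.31 for WT crush against naive (adjusted p = 0.0552). For WT mice its estimate and error were both smaller than with DESeq2 here, at similar unadjusted p-values (0.00539 and 0.00598). The sizes of the 2 estimates were therefore not compared. Of the miRNAs with an adjusted p there, 27 of 498 in DYT1KI and 48 of 586 in WT cortex were under 0.05 in the authors' deposited table. The interaction of injury and genotype was 0.82 ± 0.66 (adjusted p = 0.855), among 0% of miRNAs called.

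**Figure D3:**
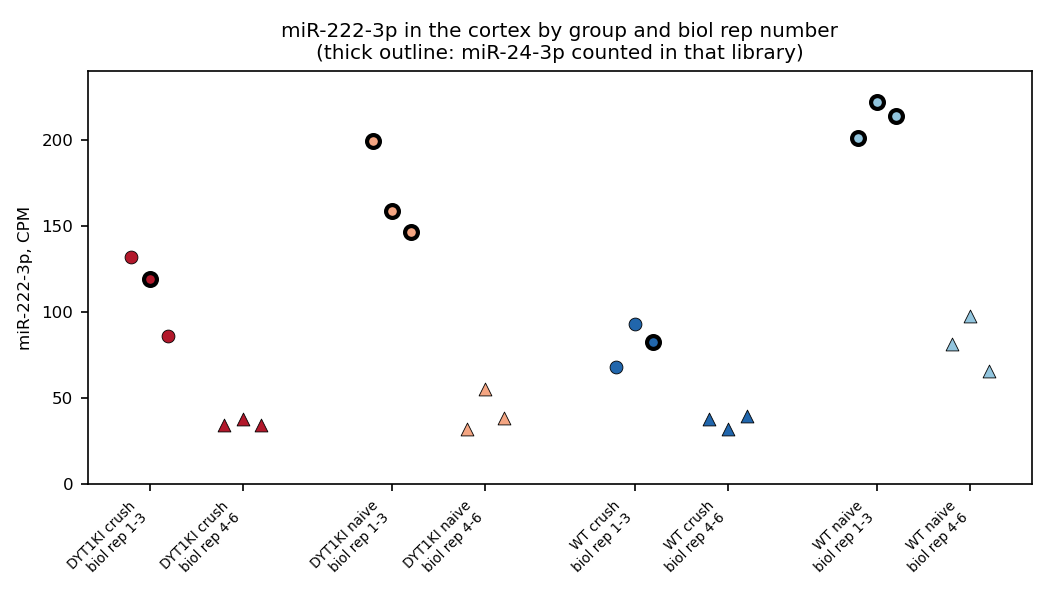
miR-222-3p in CPM (vertical) in every cortex library, split by group and by biol rep 1-3 or 4-6 (horizontal); a thick outline marks a library in which miR-24-3p was counted. Naive libraries numbered 1 to 3 sit between 147 and 222.2 CPM, above the 6 injured ones of those numbers. How many of all miRNAs separate in this way was not counted.

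Other measures of the libraries moved with miR-222-3p. The 8 cortex libraries with miR-24-3p counted had 82.5 to 222.2 CPM of miR-222-3p, and the 16 at 0 had 31.8 to 132 CPM. Without the 8 the averaged log2 change of miR-222-3p was 0.071 ± 0.31 (adjusted p = 0.935), the opposite sign. That fit holds 4 injured and 0 naive libraries numbered 1 to 3, so the injury and the number are mixed in it.

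The score on the first component, with loadings taken from cerebellum and the 4 arms left out, averaged -0.56 ± 1.07 in injured and 0.36 ± 1.08 in naive DYT1KI cortex, and -0.57 ± 0.44 in injured and 0.77 ± 0.69 in naive WT cortex (SD, n = 6 each). The sign of the component was set so that it rose with miR-222-3p inside the cerebellum groups. The score lay between -0.51 and 0.48 in injured and between 1.10 and 1.41 in naive libraries numbered 1 to 3. In numbers 4 to 6 it lay between -1.71 and -0.90 in injured and between -1.25 and 0.76 in naive libraries. Injured libraries lay below all naive ones in 1 to 3, and the 2 overlapped in 4 to 6. Fitted together with that score, the log2 change of miR-222-3p was 0.29 ± 0.13 (adjusted p = 0.283), and 0 of 530 miRNAs passed. Both settings were chosen after the data were seen, and the part of this component in the decrease was not tested further.

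The vessel wall miRNAs (5 of 5 counted, among them miR-126a-3p of endothelium and miR-143-3p of smooth muscle) summed to 22290 to 36810 CPM in injured and 28370 to 37430 CPM in naive DYT1KI cortex, and to 26950 to 42050 CPM in injured and 28630 to 34510 CPM in naive WT cortex. With their mean level as a term, the change of miR-222-3p was -0.74 ± 0.47 (adjusted p = 0.311), and 0 miRNAs passed. The blood cell miRNAs (5 of 5 counted) summed to 105 to 198 CPM in injured and 127.9 to 227 CPM in naive DYT1KI cortex. In WT cortex they summed to 111 to 165 CPM in injured and 160 to 361 CPM in naive mice. The microglia and leukocyte miRNAs (5 of 5 counted) summed to 155.9 to 359 CPM in injured and 157.7 to 434 CPM in naive DYT1KI cortex, and to 203 to 276 CPM in injured and 277 to 537 CPM in naive WT cortex. In WT the injured and naive ranges of this list only just missed each other, at 276.3 CPM in the highest injured and 276.8 CPM in the lowest naive library. Over all cortex groups its median was 369.7 CPM in numbers 1 to 3 and 218.3 CPM in 4 to 6. In the same order, medians were 29540 and 34640 CPM for the vessel wall list and 197.7 and 138.3 CPM for the blood cell list. In the averaged comparison, 2 of 5 vessel wall miRNAs tested fell and 0 rose, 2 of 4 blood cell miRNAs fell and 0 rose, and 2 of 5 microglia and leukocyte miRNAs fell and 1 rose. Of the oligodendrocyte miRNAs and of the neuronal ones 1 of 4 each fell and 0 rose, and of the Htr2c-hosted ones 0 of 5 passed. These counts stand against 30.9% of all miRNAs called, 58 higher and 106 lower. The part of blood and microglia in the miR-222-3p change was not tested.

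Htr2c-hosted miRNAs, which are scarce in cortex, summed to between 16.9 and 52.3 CPM in naive WT cortex but reached 1108 CPM in a DYT1KI crush, 1879 CPM in a DYT1KI naive and 480 CPM in a WT crush library. With their level as a term the change of miR-222-3p was -0.91 ± 0.34 (adjusted p = 0.0442). Without 4 libraries rich in miR-448-3p, miR-206-3p or miR-449a-5p it was -0.91 ± 0.35 (adjusted p = 0.0790). Those 4 were picked after the data were seen, without a fixed cut-off. The fit with the Htr2c-hosted level called 160 of 530 miRNAs and the fit without the 4 libraries 0 of 533, against 164 of 530 in the fit of 4 groups. The part of these libraries in the change was not tested further.

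**Figure D4:**
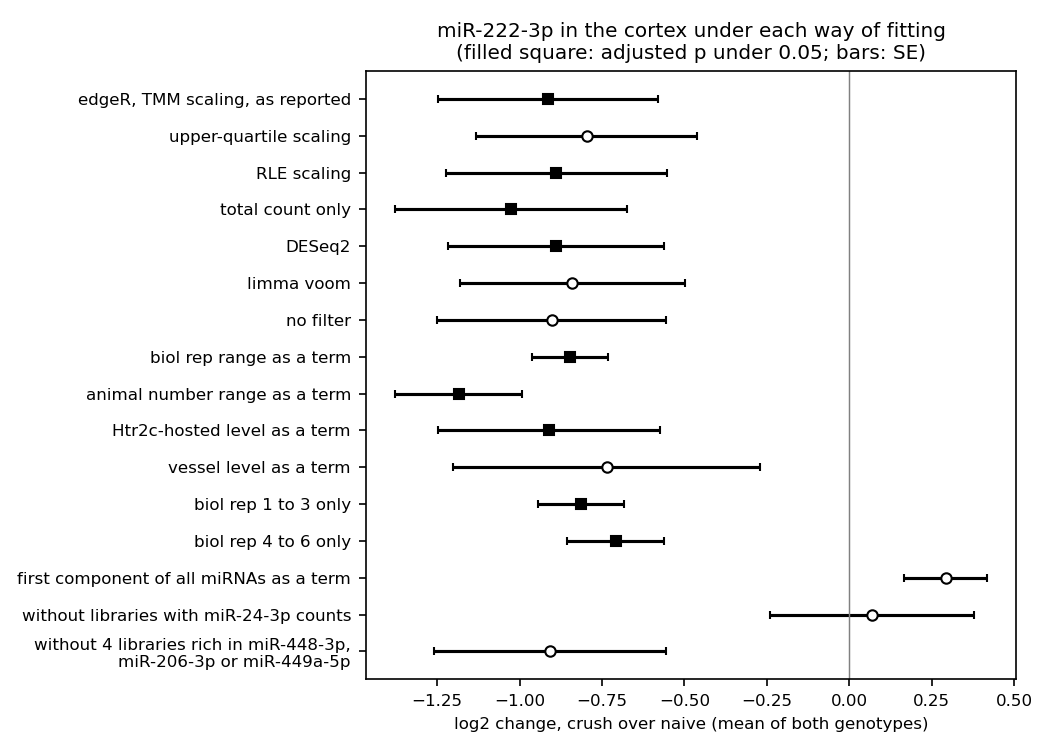
Log2 change of miR-222-3p in cortex, crush over naive averaged over genotypes (horizontal), under each way of fitting (vertical), with SE bars and filled squares where the adjusted p was under 0.05. Estimates lie between -1.18 and -0.71 except with the first component as a term (0.29) and without libraries with miR-24-3p counts (0.071).

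The other arms moved little in the cortex. miR-221-3p, with the same seed as miR-222-3p, had 611, 712 and 833 CPM in injured and 677, 781 and 949 CPM in naive DYT1KI mice, and 654, 756 and 825 CPM in injured and 762, 871 and 953 CPM in naive WT mice. Its averaged log2 change was -0.17 ± 0.07 (adjusted p = 0.0680). miR-221-5p had 38.5, 45.1 and 64.9 CPM in injured and 43.4, 62.9 and 64.9 CPM in naive DYT1KI mice, and 42.8, 50.4 and 54.7 CPM in injured and 45.3, 54.6 and 61.0 CPM in naive WT mice. Its averaged change was -0.22 ± 0.09 (adjusted p = 0.0640). Groups overlapped for both arms. With the range of numbers as a term both passed, at -0.17 ± 0.06 for miR-221-3p (adjusted p = 0.0222) and -0.22 ± 0.09 for miR-221-5p (adjusted p = 0.0404), among 242 of 530 miRNAs called. Without DYT1KI naive biol rep 1 the averaged change of miR-221-3p was -0.060 ± 0.07, and without DYT1KI crush biol rep 1 that of miR-221-5p was -0.11 ± 0.08. Neither passed within 1 to 3 (-0.0095 ± 0.08 and -0.057 ± 0.12) or within 4 to 6 (-0.18 ± 0.08 and -0.22 ± 0.11).

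In the authors' deposited table miR-221-5p had a log2 fold change of -0.32 between DYT1KI crush and DYT1KI naive cortex (adjusted p = 0.0485), 1 of 27 under 0.05 among 498. edgeR gave -0.31 ± 0.13 there, which did not pass (adjusted p = 0.140). miR-222-5p, from the same hairpin as miR-222-3p, had 46.8, 59.4 and 65.8 CPM in injured and 48.6, 55.1 and 61.8 CPM in naive DYT1KI mice, and 42.3, 51.1 and 62.8 CPM in injured and 43.3, 46.9 and 58.3 CPM in naive WT mice. Its averaged change was 0.06 ± 0.08 (adjusted p = 0.569), and -0.06 ± 0.09 with total count scaling. The 2 arms of miR-222 thus had estimates of unlike size in the cortex.

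In the striatum no arm passed after injury. The SD of miR-222-3p inside groups was smaller than in cortex, while those of miR-221-3p and miR-221-5p were not. miR-222-3p had 25.5, 30.3 and 38.6 CPM in injured and 28.2, 36.8 and 53.4 CPM in naive DYT1KI mice. In WT mice it had 24.99, 30.4 and 33.7 CPM in injured and 25.4, 31.8 and 37.7 CPM in naive mice. Groups overlapped throughout.

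The averaged log2 changes in striatum were -0.18 ± 0.09 for miR-222-3p (adjusted p = 0.526), -0.24 ± 0.09 for miR-221-3p (adjusted p = 0.385), -0.06 ± 0.10 for miR-221-5p (adjusted p = 0.900) and 0.11 ± 0.08 for miR-222-5p (adjusted p = 0.697). No miRNA passed in the striatum (0% called), with 54 of 547 at an unadjusted p under 0.05. miR-221-3p ranged from 380 to 657 CPM in injured and 472 to 809 CPM in naive DYT1KI striatum, and from 487 to 613 CPM in injured and 556 to 700 CPM in naive WT striatum. miR-221-5p had medians of 26.7 CPM in injured and 26.6 CPM in naive DYT1KI striatum, and 26.1 CPM in injured and 26.8 CPM in naive WT striatum. miR-222-5p had medians of 44.7 CPM in injured and 44.4 CPM in naive DYT1KI striatum, and 49.5 CPM in injured and 44.7 CPM in naive WT striatum. For these arms too, injured and naive ranges overlapped in both genotypes.

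In the cerebellum, miR-222-3p was low and uneven. It had 5.10, 7.23 and 9.64 CPM in injured and 7.28, 8.55 and 36.2 CPM in naive DYT1KI mice. In WT mice it had 8.41, 9.78 and 50.7 CPM in injured and 5.20, 9.33 and 22.4 CPM in naive mice. The highest libraries, WT crush biol rep 1 with 50.7 CPM and DYT1KI naive biol rep 1 with 36.2 CPM, were the 2 with miR-24-3p counted, and naive WT biol rep 1 followed with 22.4 CPM. The groups overlapped.

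The log2 change after injury was -1.01 ± 0.50 in DYT1KI mice (adjusted p = 0.543) and 0.63 ± 0.50 in WT mice (adjusted p = 1). Neither passed, and no miRNA did in either genotype (0% of 555, with 41 and 21 at an unadjusted p under 0.05). The interaction was -1.64 ± 0.71, with an unadjusted p of 0.0298 and an adjusted p of 0.921 (edgeR, 0% called). Without WT crush biol rep 1 it was -0.81 ± 0.61 (adjusted p = 1.00) and the change in WT mice was -0.20 ± 0.45. Without DYT1KI naive biol rep 1 the change in DYT1KI mice was -0.51 ± 0.47 (adjusted p = 0.892). By number, the change in DYT1KI mice was -1.76 ± 0.58 in 1 to 3 (adjusted p = 0.0673) and 0.089 ± 0.19 in 4 to 6 (adjusted p = 0.970), so it was not seen in both. Averaged over genotypes it was -0.19 ± 0.35 (adjusted p = 0.952), with 0% called and 41 miRNAs at an unadjusted p under 0.05. This value was -0.61 ± 0.31 without WT crush biol rep 1 and 0.057 ± 0.33 without DYT1KI naive biol rep 1, so its sign rested on single libraries.

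The other arms in cerebellum lay close together. miR-221-3p had 65.6, 88.7 and 101 CPM in injured and 84.4, 94.8 and 146.1 CPM in naive DYT1KI mice, and 98.99, 119 and 127.7 CPM in injured and 86.8, 108 and 153.5 CPM in naive WT mice. miR-221-5p had medians of 10.9 CPM in injured and 11.51 CPM in naive DYT1KI mice, and 11.53 CPM in injured and 10.6 CPM in naive WT mice. miR-222-5p had medians of 13.8 CPM in injured and 14.2 CPM in naive DYT1KI mice, and 13.6 CPM in injured and 12.2 CPM in naive WT mice. All groups overlapped for these arms within a genotype, and their averaged log2 changes were -0.14 ± 0.11 for miR-221-3p, -0.053 ± 0.14 for miR-221-5p and 0.12 ± 0.13 for miR-222-5p.

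Between genotypes, no arm passed in any tissue in the fit of 4 groups. In cerebellum 5.05% of miRNAs were called for DYT1KI against WT averaged over treatments, and the change was -0.28 ± 0.11 for miR-221-3p (adjusted p = 0.122) and -0.54 ± 0.35 for miR-222-3p (adjusted p = 0.316). The value of miR-222-3p was -0.13 ± 0.30 without WT crush biol rep 1 and -0.79 ± 0.33 without DYT1KI naive biol rep 1. Among injured mice, DYT1KI against WT cerebellum gave -0.42 ± 0.17 for miR-221-3p (adjusted p = 0.167) and -1.36 ± 0.51 for miR-222-3p (adjusted p = 0.162), with 0% called. miR-221-3p averaged 86.7 ± 11.8 CPM in injured DYT1KI (n = 6) and 116 ± 12.0 CPM in injured WT mice (n = 5, SD), and 1 of 6 DYT1KI values lay inside the WT range. How many of all miRNAs separated as far was not counted, and 122 of 555 had an unadjusted p under 0.05 (edgeR). Without WT crush biol rep 1 the difference of miR-222-3p was -0.53 ± 0.45 (adjusted p = 0.700). In cortex, DYT1KI against WT averaged over treatments gave log2 differences from -0.09 ± 0.07 for miR-221-3p to 0.17 ± 0.08 for miR-222-5p, with 0% called and 14 of 530 at an unadjusted p under 0.05. In striatum they ranged from -0.06 ± 0.09 for miR-221-3p to 0.16 ± 0.09 for miR-222-3p, with 0% called and 53 of 547 at an unadjusted p under 0.05. Some alternative fits did call an arm. With the biol rep range as a term, miR-222-3p passed in naive DYT1KI against naive WT cortex, where 7 of 530 miRNAs were called. With total count scaling, miR-221-3p passed in cerebellum averaged over treatments, where 92 of 555 miRNAs were called.

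Whether the averaged injury change differed between tissues was tested with limma, with the animal as a random block (estimated correlation 0.095). Between cortex and striatum 1.75% of 629 miRNAs passed, and none of the 4 arms. For miR-222-3p the difference was -0.72 ± 0.37 (adjusted p = 0.217). It was -0.63 ± 0.41 between cortex and cerebellum (adjusted p = 0.427) and -0.09 ± 0.42 between cerebellum and striatum (adjusted p = 0.970), with 0% called in both. A decrease of miR-222-3p in the cortex alone was therefore not shown.

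Ratios of 2 arms within a library do not depend on scaling. In 36 comparisons (3 ratios, 4 contrasts, 3 tissues) no ratio passed an exact two-sided permutation test after adjustment. The lowest unadjusted values were 0.0130 for miR-222-3p over miR-221-3p in naive DYT1KI against naive WT striatum and 0.0173 for miR-222-3p over miR-222-5p in injured against naive WT cortex (adjusted p = 0.169 for both). The first ratio averaged -4.04 ± 0.16 in naive DYT1KI and -4.32 ± 0.13 in naive WT striatum on the log2 scale (SD, n = 6 each). The second averaged 0.08 ± 0.75 in injured and 1.43 ± 0.73 in naive WT cortex (SD, n = 6 each). Over all groups of cortex this second ratio averaged 1.38 in numbers 1 to 3 and -0.27 in numbers 4 to 6. The miR-222-3p over miR-221-3p ratio averaged -3.79 ± 0.58 in injured and -2.73 ± 0.78 in naive WT cortex (exact permutation p = 0.0346, adjusted p = 0.178). The miR-221-3p over miR-221-5p ratio stood at 3.91 ± 0.21 over 24 cortex libraries, and that of miR-222-3p over miR-222-5p at 0.55 ± 1.06 (SD), so the first varied less between libraries.

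Libraries high in miR-221-3p tended to be high in miR-222-3p. Deviations from group means of log2 CPM correlated with r = 0.68 in cerebellum (rho = 0.63, adjusted p = 0.0018 and 0.0057, n = 23), r = 0.82 in striatum (rho = 0.80, adjusted p = 9e-05 and 0.00012, n = 24) and r = 0.62 in cortex (rho = 0.59, adjusted p = 0.0049 and 0.0098, n = 24). P-values came from 100000 permutations within groups, adjusted over the 3 tissues. Without the 2 libraries farthest from the median of miR-221-3p, r was 0.53, 0.72 and 0.56 in the same order.

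The relation did not hold within the ranges of numbers in cortex, where r was -0.13 in 1 to 3 and 0.27 in 4 to 6 (permutation p = 0.74 and 0.35, n = 12 each). In cerebellum it was 0.69 in 1 to 3 (permutation p = 0.025, n = 12) and -0.23 in 4 to 6 (permutation p = 0.75, n = 11). In striatum it held in both, at 0.95 and 0.81 (permutation p = 0.00075 and 0.0073, n = 12 each). Adjusted over all 9 relations, pooled ones included, the permutation p of Pearson's r was 0.0375 for cerebellum in 1 to 3, 0.0034 and 0.0131 for striatum in 1 to 3 and 4 to 6, and 0.45 or more for the others within a range. For Spearman's rho the adjusted p of cerebellum in 1 to 3 was 0.054, which did not pass, and Pearson's r there was 0.54 without 2 libraries.

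**Figure D5:**
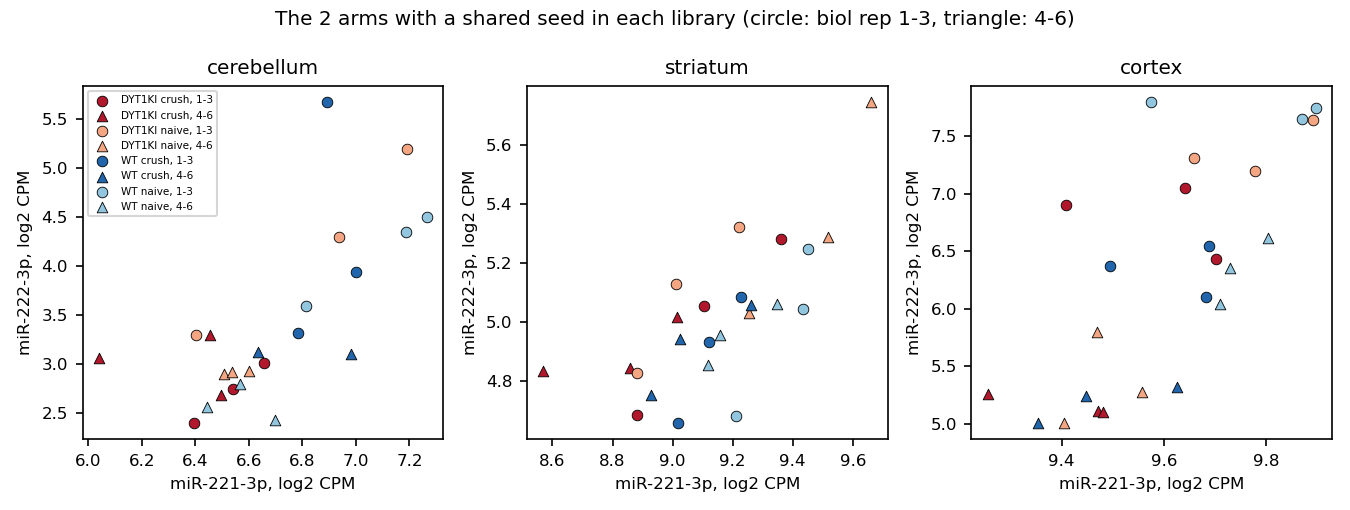
log2 CPM of miR-222-3p (vertical) against miR-221-3p (horizontal) in every library of each tissue, by group (colour) and biol rep range (shape). In cortex the circles (1 to 3) and triangles (4 to 6) lie at different heights, whereas in striatum they mix, where r was 0.82.

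The spread inside groups set miR-222-3p apart from the other arms. Its SD of log2 deviations was 0.79 in cerebellum and 0.84 in cortex but 0.21 in striatum. Of the 477 miRNAs tested in all 3 tissues, 89.1% had a smaller SD in cerebellum, 35.8% in striatum and 90.6% in cortex. miR-221-3p had 0.25, 0.21 and 0.14 in the same order of tissues, and the smaller-SD share was 1.05% in cortex.

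Over all 71 libraries, the miRNAs most like miR-222-3p in deviations from the 12 group means were miR-23a-3p with miR-23b-3p, counted together (Pearson r = 0.94), miR-30c-5p (0.94), miR-376b-5p (0.94), miR-411-3p (0.92) and miR-496a-3p (0.92). Their r was 0.96 to 0.97 in cortex and 0.89 to 0.95 in cerebellum but 0.31 to 0.67 in striatum. miR-221-3p came 107th in that order, at r = 0.59. The 4 of these with an entry in RefSeq are shown because none shares the seed of miR-222-3p.

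miR-30c-5p: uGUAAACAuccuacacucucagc

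miR-376b-5p: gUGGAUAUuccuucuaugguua

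miR-411-3p: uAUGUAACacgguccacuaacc

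miR-496a-3p: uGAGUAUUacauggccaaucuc

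The miRNAs most like miR-221-3p were miR-132-5p (r = 0.76), miR-146b-5p (0.72), its own 5p arm (0.69), miR-409-5p (0.66) and miR-487b-3p (0.66). miR-222-3p came 16th, and miR-222-5p 264th, at r = -0.07. In cortex miR-222-5p and miR-222-3p ran at r = -0.37, in striatum at r = 0.31 and in cerebellum at r = -0.44. These correlations are descriptions, over libraries that share group means and depth.

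Of a list of 20 other miRNAs known from nerve injury, some of them also among the marker miRNAs above, 19 were tested in cortex, and 2 rose and 8 fell after injury averaged over genotypes, with a median log2 change of -0.16 against -0.03 over all 530. Over all miRNAs 30.9% were called, 58 higher and 106 lower, so lower calls were the more frequent ones in the background too. miR-30b-5p fell by 1.04 ± 0.25 on the log2 scale (adjusted p = 0.0128), miR-133a-3p with miR-133b-3p, muscle miRNAs counted together, by 0.91 ± 0.22 (adjusted p = 0.0138), miR-223-3p of myeloid cells by 0.49 ± 0.13 (adjusted p = 0.0154) and miR-145a-5p of smooth muscle by 0.81 ± 0.24 (adjusted p = 0.0205). The inflammatory miR-155-5p rose by 0.48 ± 0.13 (adjusted p = 0.0193). In striatum and cerebellum 0 of 19 and 0 of 20 passed after injury. miR-206-3p rose (0.60 ± 0.14, adjusted p = 0.0267) and miR-29a-3p fell (-0.38 ± 0.11, adjusted p = 0.0367) in cerebellum of DYT1KI against WT averaged over treatments. They were the only 1 higher and 1 lower of 20 tested there. Over all miRNAs 28 of 555 (5.05%) were called in that comparison, 20 higher and 8 lower. In the cortical comparison, therefore, members of this list changed in both directions.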

How the data were processed

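The QIAseq miRNA UDI kit gave the small RNA libraries after miRNeasy mini kit extraction for cerebellum and micro kit for the other tissues, per the labels' protocols. The authors deposited raw counts per mature miRNA, identical in all tables of a tissue, per the file headers. Beside these the authors deposited a normalized signal (counts over DESeq2 size factors), log2 fold changes with errors, a score (Wald statistic) and p-values, raw and adjusted. R 4.1.0 and featureCounts 1.6.4 are named by the submitters' processing notes. The aligner and genome build were not given in the sources used here, nor whether molecular identifiers were collapsed.

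From the counts, 4 groups per tissue were fitted in R 4.3.3 with edgeR 4.0.16 (TMM, filterByExpr with minimum count 10 and total 15, robust quasi-likelihood). P-values were Benjamini-Hochberg adjusted over 530 cortical, 547 striatal and 555 cerebellar miRNAs, with a threshold of 0.05. Differences of injury changes between tissues used limma 3.58.1, and DESeq2 1.42.0 was an alternative. Log2 CPM had a prior count of 2, and ratios a pseudocount of 0.5. Scripts were tested on simulated data.

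Tissues are paired by mouse number, since 23 of 24 mice gave all 3 and 1 (WT crush) gave cortex and striatum. Same-mouse libraries correlated with mean r = 0.26 between cerebellum and cortex, 0.02 between cerebellum and striatum and -0.01 between striatum and cortex. Nothing says that biol rep numbers mark a shared batch. Named miRNAs were the 4 arms, those sharing a seed, the 5 most like each 3p arm, and up to 5 called or 2 with smallest p from the nerve injury list. Members and lists were chosen with earlier results of these data known.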

Additional observations from a re-analysis of the deposited data

Results flagged for a closer look

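Of 48 sets of values (4 arms in 12 groups), 2 had a library far from the rest of its group; chance alone marks about 1 in 20. In cerebellum of injured WT mice, biol rep 1 had 50.7 CPM of miR-222-3p, against 15.2 CPM in the next highest of 5 libraries. It is also 1 of the 2 cerebellum libraries with miR-24-3p counted. In cortex of injured DYT1KI mice, biol rep 3 had 64.9 CPM of miR-221-5p, against 47.8 CPM in the next highest of 6. No interaction of injury and genotype, and no difference of the injury change between tissues, passed the threshold for any arm.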

How the results depend on the processing

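Over 1416 values of single arms under alternatives, 1315 kept their sign. Of the 101 that did not, 2 had been called: miR-222-3p in cortex after injury, averaged, was 0.29 with the first component as a term and 0.071 without the miR-24-3p libraries. For that comparison, 1 arm called became 0 with upper-quartile scaling, limma voom, no filter, the vessel level, the first component, without the miR-24-3p libraries and without the 4 marker-rich libraries, and 3 (both miR-221 arms added) with total count scaling, DESeq2, the biol rep range and the animal number range. Over all 530 miRNAs these last 4 fits called 169, 194, 242 and 277, while upper-quartile scaling called 167, voom 168 and no filter fewer than the 164 of TMM although 958 were tested, and the other settings with 0 arms called 0. Leaving out 1 library gave 0 to 2. Within WT cortex, 0 became 1 with DESeq2, with only the 2 groups, with the biol rep range as a term and within each range, and 2 with the animal number range, a range that holds only 1 naive WT mouse on its low side. Those fits called 84 of 530, 134 of 480, 172 of 530, 189 of 539 (numbers 1 to 3), 27 of 521 (4 to 6) and 237 of 530 miRNAs. Within DYT1KI cortex, 0 became 1 with DESeq2, where 43 of 530 miRNAs were called, and at most 1 (miR-221-5p) without 1 library. Naive DYT1KI against WT cortex gave 1 (miR-222-3p) with either range as a term. Of 530 miRNAs, 7 were called there with the biol rep range and 46 with the animal number range. The averaged genotype contrast in cerebellum gave 1 (miR-221-3p) with total count scaling or the animal number range. Total count scaling called 92 of 555 miRNAs there and moved the median of all miRNAs to -0.29. With the biol rep number as a replicate block, the averaged cortical count was 3, that in WT cortex 1 and that of cerebellar genotype 1. Over all 530 cortical miRNAs the block fit called 240 for the averaged change and 164 for WT mice. Same-numbered libraries correlated with mean r = 0.30 in cortex, 0.17 in cerebellum and -0.05 in striatum, and 8 of 24, 8 of 23 and 1 of 24 libraries correlated best with their own number. The animal as replicate block left 4 of 4 arms called in each tissue contrast. No ratio passed under any alternative. The causes were not tested.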
